A study of Oryctolagus cuniculus with 18 samples.

Results

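Net changes in transcript level between the expanded blastocyst and the 4-cell embryo were measured in rabbit (Oryctolagus cuniculus) embryos that had developed in vivo. Samples were chosen by their embryo stage label, which gave 12 of the 18 arrays of the series and 6 of its 9 pools of embryos. The 3 blastocyst pools held 16, 37 and 60 embryos from 2, 4 and 7 females. The first was collected at 96 h post coitum and the other two at 90 h. The 3 4-cell pools were collected at 32 h. Pools 1 and 2 held 53 and 52 embryos from 3 and 4 females, and pool 3 came from 2 females, with no embryo number in its label. RNA of each pool was amplified in parallel as antisense RNA (aRNA), by in vitro transcription, and by PCR, labelled with 33P and hybridised to 1 array per amplification. The 2 arrays of a pool were averaged and counted as 1 replicate. No strain or treatment is given in the labels. The early morula pools (58 h) added to the estimate of the spread and are otherwise only described.

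At the 4-cell stage an embryo still relies largely on transcripts that the oocyte stored, and these are degraded while the embryo's own genome takes over transcription. In the rabbit the main wave of that activation follows the 4-cell stage. By the expanded blastocyst the embryo has an outer trophectoderm, which pumps fluid into the cavity and will form placenta, and an inner cell mass, which will form the fetus. The comparison therefore spans both the clearance of stored transcripts and the start of the first cell types. A pool is a bulk sample, so a change in the cells that express a transcript and a change of RNA per cell cannot be told apart.

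The arrays carried 2052 clones with names that start with lca, of which 1017 have the prefix lcao, 1017 lcap, 15 lcal and 3 lcaq. Neither the files nor the gene table used here pairs a clone with a gene: 0 of the 2052 names were found in that table. Clones are therefore described as groups and by at most 2 IDs per direction, no marker of a cell type could be checked, and several clones may carry the same transcript. Levels are log2 normalized intensities, quantile normalized within an amplification, so a rise or fall is relative to the other clones. Median raw clone intensity was 28 to 386 on blastocyst arrays and 29 to 122 on 4-cell arrays. Across clones, which are not independent replicates, pools of one stage correlated at r of 0.93 to 0.99 in blastocysts and 0.82 to 0.88 in 4-cell embryos, against 0.47 to 0.57 between the stages. Nothing in the labels says whether pools came from separate matings, so p-values rest on the spread between these pools alone. That spread is taken within stages over all 9 pools, morula included, and is moderated across clones.

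Of the 2052 clones, 592 (28.8%) changed between the stages (limma over all 9 pools, Benjamini-Hochberg adjusted p under 0.05): 301 rose (14.7%) and 291 fell (14.2%). The median change was 1.33 among the rises and -1.17 among the falls (log2), and the smallest called change was 0.52 in size. Rises beyond 2-fold numbered 221 and falls 185. Beyond 4-fold there were 73 rises and 42 falls, and beyond 16-fold 25 rises and 6 falls. The split between rises and falls depended on the scaling: with each array centred on its median 312 clones changed, 246 up and 66 down (78.8% up, against 50.8%). Without the blastocyst, 4-cell and morula pools of array code 5, among them the 96 h blastocyst pool, 333 changed, 195 up and 138 down. The same step gave 696 for code 4 (350 up, 346 down) and 396 for code 6 (221 up, 175 down).

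**Figure D1:**
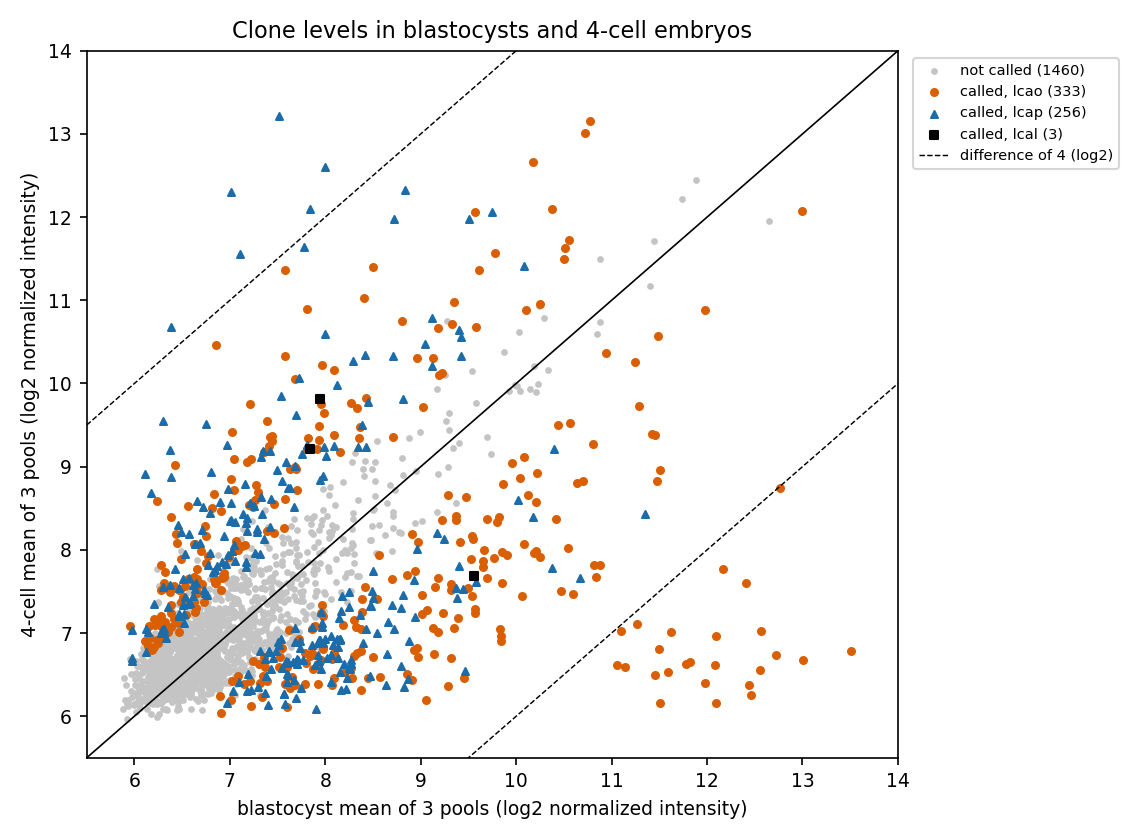
Mean log2 normalized intensity of each clone over the 3 blastocyst pools (horizontal) and the 3 4-cell pools (vertical), with called clones coloured by name prefix. The 25 clones beyond the lower dashed line all have the prefix lcao, and the 6 beyond the upper one all have the prefix lcap.

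The largest rises stood apart from the rest. The smallest of the 25 was 4.02 and the next clone below it rose by 3.17 (log2), with none between. Spots of a name were averaged, and outside the 25 a single spot of a name spotted 3 times rose by 5.43. On the intensity scale, other processing and fewer pools gave 21 to 29 lcao rises beyond 16-fold. In blastocysts the pool values of the 25 ran from 10.87 to 13.59, with a median stage mean of 12.09, whereas in 4-cell embryos they ran from 5.94 to 9.20, with a median of 6.65. All 25 were above the XWAB level on 6 of 6 blastocyst arrays. That level is the 95th percentile, on the same array, of the spots named XWAB, which lie outside the clones. In 4-cell embryos 24 of the 25 were above it on 0 or 1 of 6 arrays, so their 4-cell level is only bounded from above. Set against the dimmest signal over that level, these 24 were at least 5.30-fold to 29.0-fold higher in blastocysts, with a median bound of 10.5-fold. The other clone was above the level on 3 of 6 4-cell arrays and rose 16.2-fold.

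These 25 clones make up 1.22% of all clones. On the raw scale, which no normalization had touched, they held 19.5%, 26.0% and 35.0% of all clone intensity on the blastocyst aRNA arrays of pools 1, 2 and 3, against 0.735%, 0.424% and 0.540% on the 4-cell aRNA arrays. On the PCR arrays they held 24.4%, 19.2% and 22.9% in blastocysts, against 0.588%, 0.460% and 0.379% in 4-cell embryos. All 6 blastocyst arrays thus lay far above all 6 4-cell arrays. The clones were chosen by their change between these stages, so the shares are a description and were not tested.

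**Figure D2:**
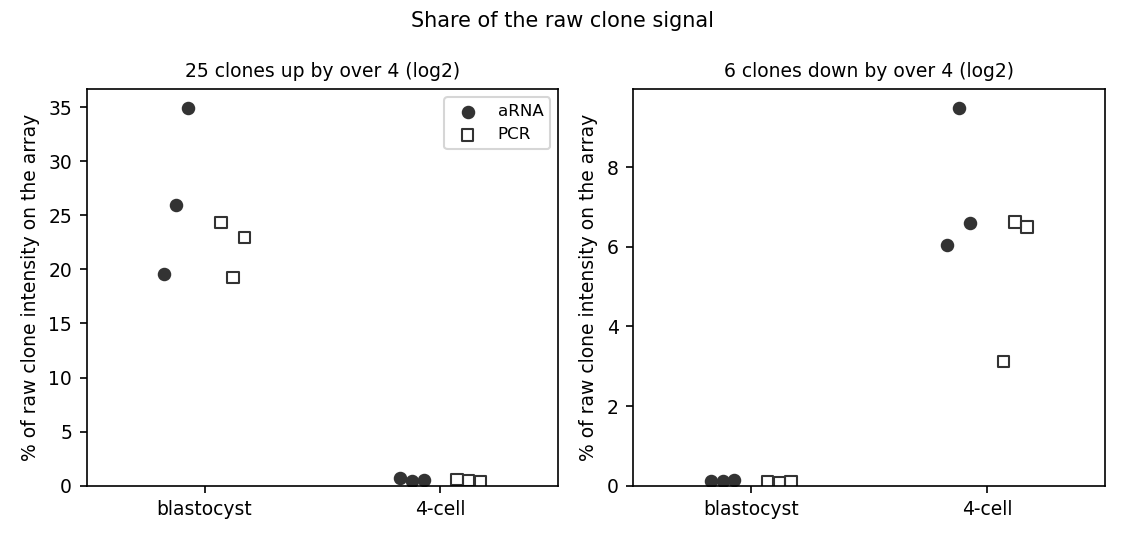
Percent of the raw clone intensity of an array held by the 25 clones that rose by over 4 (left) and the 6 that fell by over 4 (right, log2), with 1 point per array. The 25 reach 19.2% to 35.0% on blastocyst arrays and stay below 1% on 4-cell arrays, and the 6 reach 3.12% to 9.49% on 4-cell arrays and stay below 0.2% on blastocyst arrays.

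In morulae these clones were still dim. The 25 had a median stage mean of 6.82 in morulae, close to the 6.65 of 4-cell embryos, and no morula pool exceeded 9.01. The morula pools were not alike, with pool 2 the highest on the raw scale. The 25 held 0.595%, 1.58% and 0.393% of the raw clone intensity on aRNA arrays of morula pools 1 to 3. On the PCR arrays of these pools the 25 held 0.266%, 0.742% and 0.237%. A median of 3.79% of their log2 rise was present in the morula, and all 25 had a morula mean nearer the 4-cell than the blastocyst mean. The 25 spots lay in 14 of the 16 printed blocks, and 6 of them had another of the 25 as an adjacent spot. None had an adjacent spot at 4 times its own intensity or more. Such a neighbour is less likely for clones this bright in blastocysts, and the part of signal from adjacent spots was not tested.

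The 6 clones that fell beyond 16-fold were lower in blastocysts in every pool. Their pool values ran from 6.29 to 8.42 in blastocysts and from 9.85 to 13.33 in 4-cell embryos. The smallest of the 6 falls was -4.25 and the next clone changed by -3.86. In 4-cell embryos 5 of the 6 were above the XWAB level on 6 of 6 arrays. In blastocysts all 6 were above it on at most 1 of 6 arrays. They were thus at least 4.86-fold to 28.1-fold lower there, with a median bound of 13.9-fold. On the raw scale they held 0.0814% to 0.146% of the clone intensity on blastocyst arrays, against 3.12% to 9.49% on 4-cell arrays. Their median stage mean was 7.31 in blastocysts, 10.84 in morulae and 12.20 in 4-cell embryos. A median of 32.0% of their log2 fall was present in the morula.

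The largest changes were split by clone name. All 25 rises beyond 16-fold were lcao clones and all 6 falls beyond 16-fold were lcap clones, although each prefix holds 49.6% of the clones. Beyond 4-fold, 65 lcao and 8 lcap clones rose, and 20 lcao and 22 lcap clones fell. These counts moved with the processing. With a normexp offset of 10, 92 lcao and 38 lcap clones rose and 41 and 39 fell, and with no background correction 78 and 21 rose and 32 and 33 fell. Under median centring 105 and 22 rose and 4 and 15 fell. Without 4-cell pool 1, 68 and 15 rose and 25 and 32 fell, and without the pools of array code 4, 77 and 22 rose and 32 and 35 fell. The median rise of a called clone was 1.59 for lcao and 1.18 for lcap, and the median called fall was -1.14 for lcao and -1.19 for lcap. Over all their clones, called or not, the prefixes had nearly the same median change, -0.10 for lcao and -0.07 for lcap, beside -0.08 over all clones. The meaning of these prefixes is unstated in the labels, and the prefixes were not tested against each other.

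The smaller changes were less uneven. Of lcao clones 32.7% were called (180 up, 153 down) and of lcap clones 25.2% (120 up, 136 down), beside 28.8% over all clones. The excess of falls among lcap clones turned with the scaling, to 86 up and 35 down under median centring, and lcao clones gave 203 up and 206 down with array weights. Under median centring the rises beyond 16-fold were 29 lcao clones and 1 lcap clone, and the falls were 2 lcap clones. Falls beyond 16-fold also included 1 or 2 lcao clones under 4 other alternatives, while no other alternative gave an lcap rise of that size. In units of the authors' deposited score table, another scale, 12 lcao clones rose and 3 lcap clones fell by over 4. Clone names also carry a number after the prefix. All but the smallest of the 25 rises beyond 16-fold have numbers from lcao0019 to lcao0035, and the smallest has lcao0044. The lcao numbers with at least 22 clones run from lcao0017 to lcao0049. Over the 29 lcao numbers with at least 22 clones the share called ran from 9.09% to 64.3% (median 32.4%), and over the 25 lcap numbers with at least 31 clones from 15.4% to 43.8% (median 24.1%).

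**Figure D3:**
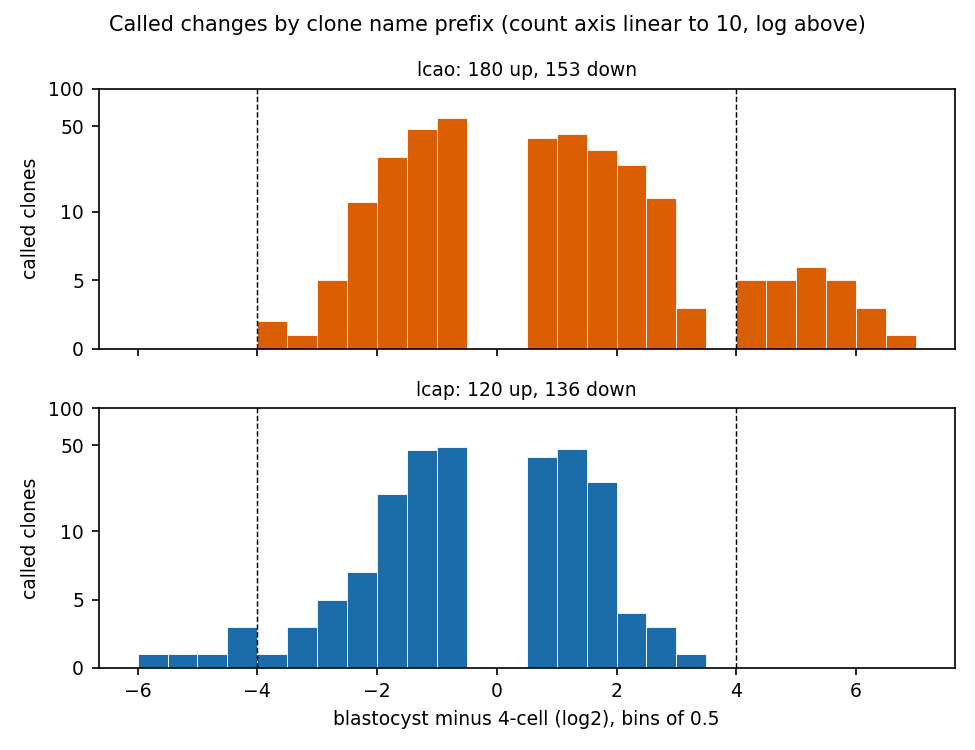
Called clones by the size of their change, blastocyst minus 4-cell (log2, bins of 0.5), for the prefixes lcao (top) and lcap (bottom), with dashed lines at a change of 4 in size and a count axis that is linear to 10 and logarithmic above. The lcao panel has 25 clones above 4, separated by an empty bin from the others, and the lcap panel has 6 clones below -4.

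The raw signal moved with the prefix as well. The lcao spots held 72.5%, 75.0% and 74.7% of the clone intensity on blastocyst aRNA arrays of pools 1 to 3, against 53.4%, 55.1% and 57.1% on 4-cell aRNA arrays. On PCR arrays the shares were 78.7%, 78.8% and 78.9% in blastocysts, against 53.7%, 62.7% and 61.3% in 4-cell embryos. The stages did not overlap in either amplification. Leaving the 25 strongly rising clones out of both sums gave 61.2% to 66.2% on blastocyst aRNA arrays, against 53.0% to 56.9% on 4-cell aRNA arrays, and 71.8% to 73.7% on blastocyst PCR arrays, against 53.4% to 62.5% on 4-cell PCR arrays. The gap was narrower without them and was still present in both amplifications.

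Single clones show the extremes and the changes that could be measured on both sides. The largest rise was in lcao0023g07, with 13.59, 13.40 and 13.53 (log2) in blastocyst pools 1 to 3, against 6.68, 6.67 and 7.02 in 4-cell pools 1 to 3. Its raw intensity was 31939, 30861 and 5926 on blastocyst aRNA arrays and 27703, 15654 and 5089 on blastocyst PCR arrays, against 38, 124 and 57 on 4-cell aRNA arrays and 30, 34 and 50 on 4-cell PCR arrays. The clone was over the XWAB level on all 6 blastocyst arrays and under it on all 6 4-cell arrays. The change was 6.72 ± 0.23 (SE, limma adjusted p = 4.35e-09), and blastocysts were at least 29.0-fold higher. The intensity of 31939 is the highest in the files and was also reached on 2 morula arrays, and the clone was at or near the top of its array, where quantile normalization sets a common value, so the change cannot exceed what that value allows. Its brightest adjacent spot had 0.712 times its intensity and itself rose by 5.13.

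The largest rise among clones above the XWAB level on all 12 arrays was far smaller. The clone lcao0042a04 had 11.42, 11.51 and 10.94 in blastocyst pools, against 8.92, 10.23 and 10.02 in 4-cell pools. All blastocyst pools were higher, with 4-cell pool 1 the lowest. In 4-cell pool 1 its raw intensity lay near the XWAB level, 144 beside 101 on the aRNA array and 62 beside 53 on the PCR array. The same held for the aRNA array of 4-cell pool 3 (177 beside 153). The other 4-cell arrays lay further above the level. The change was 1.56 ± 0.31 (SE, limma adjusted p = 0.00212), or 2.96-fold, and ranked 124th among all rises. It was 2.11 on aRNA arrays (limma adjusted p = 0.000745) and 1.02 on PCR arrays (limma adjusted p = 0.198), where 4-cell pool 3 (10.65) exceeded blastocyst pools 1 and 3 (10.54 and 10.47). In morulae it averaged 11.35, beside 11.29 in blastocysts. Under median centring the change was 3.02.

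The largest fall was in lcap0011e04, with 7.42, 7.43 and 7.69 in blastocyst pools, against 13.22, 13.33 and 13.10 in 4-cell pools. Raw intensities were 655, 401 and 56 on blastocyst aRNA arrays and 251, 162 and 49 on blastocyst PCR arrays, against 5292, 27223 and 4256 on 4-cell aRNA arrays and 1480, 10697 and 10568 on 4-cell PCR arrays. The clone was under the XWAB level on all 6 blastocyst arrays and over it on all 6 4-cell arrays. The change was -5.70 ± 0.34 (SE, limma adjusted p = 1.56e-07), and blastocysts were at least 28.1-fold lower. The clone was the brightest on the 4-cell aRNA arrays of pools 1 and 2, where quantile normalization sets a common value. Its level there cannot exceed that value. The morula mean of 12.13 was nearer the 4-cell mean of 13.22 than the blastocyst mean of 7.51.

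The largest fall measured on all 12 arrays was in lcao0049e05, with 9.69, 9.79 and 9.22 in blastocyst pools, against 12.22, 12.05 and 11.91 in 4-cell pools. The stages did not overlap. On the blastocyst aRNA array of pool 3 its raw intensity of 131 lay near the XWAB level of 97.6. The other blastocyst arrays lay further above the level. The change was -2.49 ± 0.22 (SE, limma adjusted p = 4.19e-06), 5.63-fold lower in blastocysts and the 25th largest fall, with -2.48 on aRNA and -2.51 on PCR arrays. Its brightest adjacent spot had 2.72 times its intensity and changed by -2.49 too, and the part of that spot in the change was not tested. Under median centring the change was -1.06 with a limma adjusted p of 0.297, which ended the call. Over all alternatives its adjusted p ran from 3.46e-07 to 0.297.

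**Figure D4:**
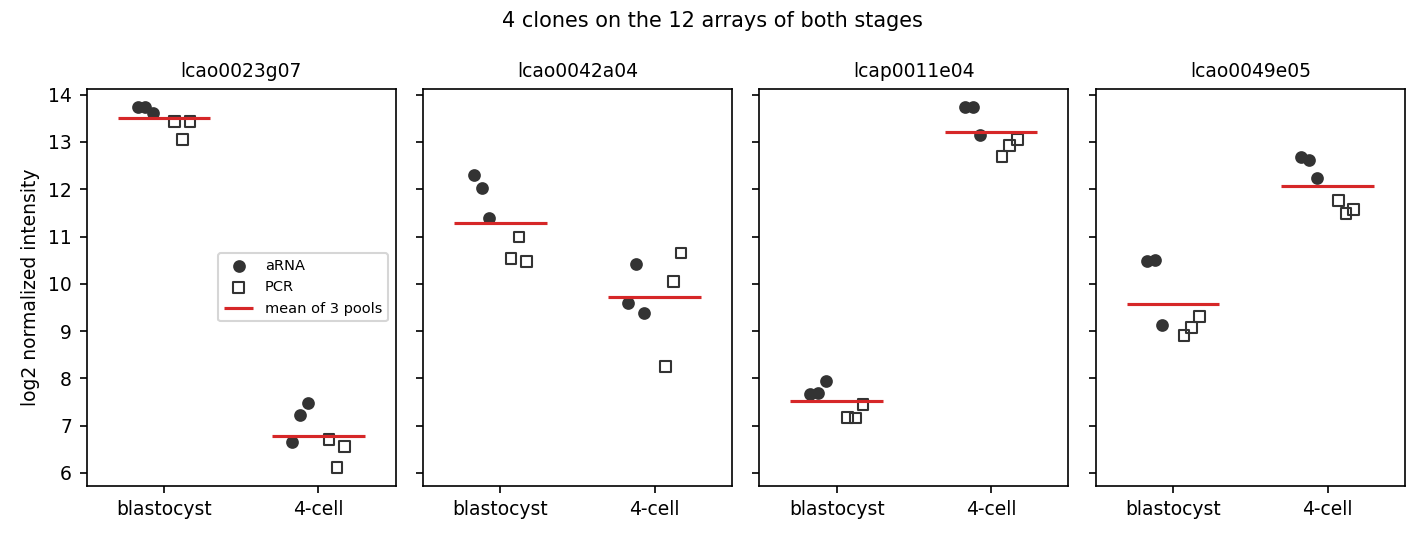
Log2 normalized intensity of 4 clones on each aRNA array (filled circles) and PCR array (open squares) of blastocysts and 4-cell embryos, with the mean of 3 pools as a line. In lcao0023g07 and lcap0011e04 the stage means lie over 5 apart, and in lcao0042a04 the PCR arrays of the 2 stages overlap.

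On all 6 arrays of a stage 172 clones passed the XWAB level in blastocysts and 93 in 4-cell embryos. The order turned for clones that passed it on no array of a stage, which numbered 1573 in blastocysts and 1508 in 4-cell embryos. A total of 53 clones were above it on all 6 blastocyst and none of the 6 4-cell arrays, and 14 the other way round. All 53 were called up, with a median change of 2.97, and all 14 were called down, with a median of -2.64 (log2). These groups were formed on the same intensities that the test used, so the counts of calls are no support for it. The 51 clones above the level on all 12 arrays had 7 rises, 24 falls and 20 that were not called, with a median change of 0.92 in size. At the dim end 1297 clones were above it on none of the 12 arrays, and 79 of these were called up and 90 down. The size of those 169 changes is uncertain, since both stages lay at or under the level. The level itself differed between arrays. It was 713 beside a median raw clone intensity of 120 on the blastocyst PCR array of pool 1. On the 4-cell PCR array of pool 1 it was 53 beside 29. Of the 76 XWAB names 6 rose and 2 fell between the stages. Counts and shares of clones over the level, here and below, thus compare stages at levels that are not alike.

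The share of clones called went with their brightness. With clones ranked by mean level over both stages, 3.31% of the 513 dimmest were called, 13.5% and 35.1% of the next groups of 513, and 63.5% of the 513 brightest. A clone that is high in a single stage is ranked brighter by its own change, so these shares are a description. Per pool, the share of clone spots above the XWAB level was 14.4%, 14.2% and 14.1% in blastocyst pools 1 to 3, against 14.6%, 11.02% and 10.6% in 4-cell pools 1 to 3, a difference that 4-cell pool 1 did not share (exact permutation test, two-sided, p = 0.4). With the 99th percentile as the level the means were 6.05% ± 0.557 in blastocysts and 4.19% ± 0.549 in 4-cell embryos (SD, n = 3 pools each, exact permutation p = 0.1). That p is the smallest that 3 against 3 pools allow.

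The concentration of the raw signal in the brightest spots was compared over pools, where 3 against 3 cannot give a p under 0.1. The 10 brightest clone spots held 15.8% ± 4.61 of the clone intensity in blastocysts and 20.4% ± 4.02 in 4-cell embryos (SD, n = 3 pools each, exact permutation p = 0.2). The 50 brightest held 44.3% ± 3.72 in blastocysts and 39.0% ± 6.94 in 4-cell embryos (exact permutation p = 0.4, n = 3 each). The 100 brightest held 58.0%, 59.6% and 59.4% in blastocyst pools 1 to 3, against 38.4%, 52.8% and 52.0% in 4-cell pools 1 to 3 (exact permutation p = 0.1), with every blastocyst pool above every 4-cell pool. Over the 8 comparisons of spot shares every Benjamini-Hochberg adjusted p of these exact tests was 0.4.

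The amplifications gave the change the same sign in 591 of the 592 called clones (301 up, 290 down), and over all clones in 1537 of 2052. Both measured the same pools and both entered the mean that was tested, so this is a technical comparison. On aRNA arrays alone 482 clones were called (23.5%) and on PCR arrays alone 397 (19.3%). Of the 301 rises, 232 were also called on aRNA arrays, 215 on PCR arrays and 170 on both. Of the 291 falls, 202 were also called on aRNA arrays, 156 on PCR arrays and 118 on both. A further 75 clones were called only on the mean of the amplifications. The median size of the called changes was 1.18 on PCR arrays and 1.40 on aRNA arrays (log2), and 195 of the 592 were larger on PCR arrays. All 25 rises and all 6 falls beyond 16-fold were called in each amplification.

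**Figure D5:**
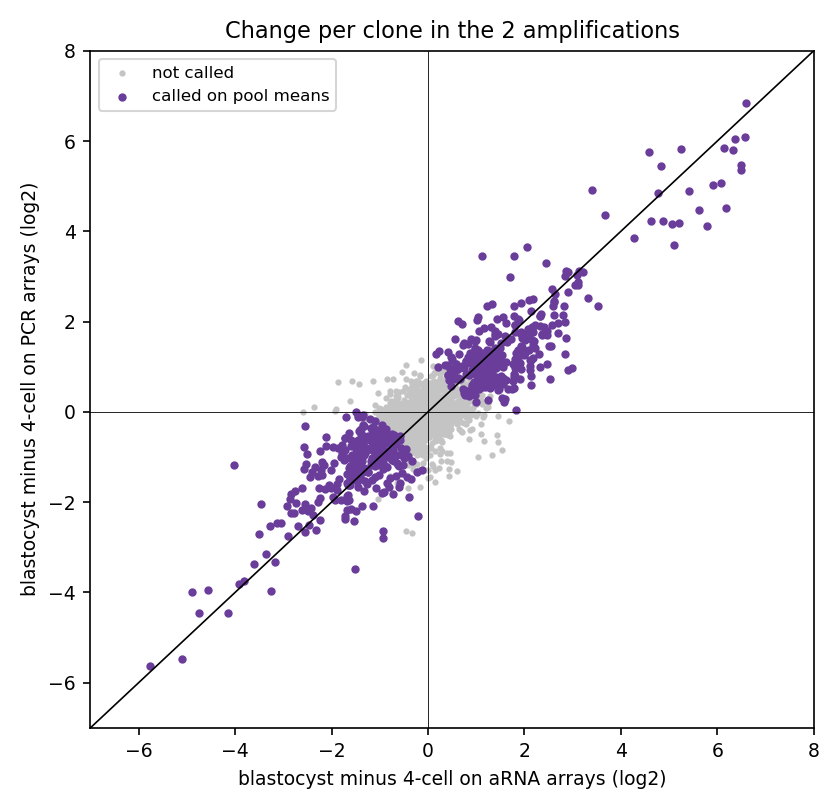
Change of each clone, blastocyst minus 4-cell (log2), on aRNA arrays (horizontal) and PCR arrays (vertical), with a line of equality. All but 1 of the 592 called clones lie in the lower left or upper right quadrant, and the 25 largest rises form a separate group at the upper right.

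Blastocyst pools resembled each other more than 4-cell pools did. The median SD of a clone over 3 pools was 0.18 in blastocysts and 0.31 in 4-cell embryos (log2), and the SD was larger in 4-cell embryos for 1454 of 2052 clones. The same order held on aRNA arrays (0.26 in blastocysts, 0.43 in 4-cell embryos) and on PCR arrays (0.20 and 0.33). The blastocyst pool of 96 h did not stand apart from those of 90 h. It differed from the mean of the other two by over 1 (log2) in 6 clones, while the 90 h pools 2 and 3 did so in 1 and 55. Among the 301 rises it was the highest of the 3 blastocyst pools in 68 and the lowest in 85, and among the 291 falls the lowest in 71 and the highest in 94. Its later time, its 16 embryos and its array code cannot be told apart. In 4-cell embryos each pool differed by over 1 from the mean of the other two in 100 to 162 clones.

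In 914 clones (44.5%) the 3 pools of one stage all lay on the same side of the 3 of the other, with blastocysts above in 427 and below in 487, and 299 of the 301 rises and 287 of the 291 falls were among them. The labels give each array a code digit of 4, 5 or 6, without its meaning, and each code held 1 pool of either stage. Within codes 4, 5 and 6 the median change of the called rises was 1.46, 1.30 and 1.36 and that of the called falls -1.19, -1.28 and -1.14 (log2). In 591 of the 592 called clones all 3 codes had the same sign, beside 1190 of all 2052. The clones were called on these same pool values, so the counts of called clones here are no support for the calls.

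The path through the morula differed between rises and falls in these means. Of the 301 rises, 160 had a morula mean between the 2 stages, 78 above both and 63 below both. Of the 291 falls, 217 had it between, 24 above both and 50 below both. A median of 48.4% of the net log2 change was present in the morula for the rises and 71.2% for the falls. More than 50% of it was present in 150 of the rises and 211 of the falls. These shares describe the clones called between the end stages and were not tested.

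Calls were also counted by the brightness of the adjacent spots. Clones next to a brighter spot are by construction dimmer than that neighbour, and dimmer clones had a lower share of calls. Of the 2052 clones, 1280 had a spot in the same printed block, next to theirs, whose mean raw intensity was 4 times as high or higher. Of these 22.3% were called (147 up, 139 down), against 39.6% of the 772 others (154 up, 152 down). Of 283 called clones whose brighter neighbour could be compared, 235 (83.0%) changed in the direction of that neighbour, beside 67.4% of all clones with such a neighbour. The part of signal from adjacent spots in these calls was not tested. All 31 changes beyond 16-fold were among the clones without such a neighbour.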

How the data were processed

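The deposited array tables give each spot's intensity, linear and without a background column. Per the file headers, AGScan measured it with spots of fixed diameter. A quality value of 0 or 1 per spot has no stated meaning. The authors' deposited series table, used as an alternative, holds a score that the authors had centred at mean 0 and scaled to a common SD on every array, as its values show, with no log base stated.

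Intensities of all 2304 spots were background corrected by normexp in limma (offset 50) and log2 transformed. The 2087 clone spots were quantile normalized over the 9 arrays of an amplification, spots of a name averaged, and the arrays of a pool averaged. These pool means were fitted with limma's lmFit and eBayes over 9 pools, and blastocyst minus 4-cell was adjusted by Benjamini-Hochberg over 2052 clones. SE comes from this fit. The fit was tested on simulated data. Single values were tested by exact permutation over pools. The number of arrays limits the precision.

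Clones were named by this rule: per direction, the largest change among called clones of equal sign in both amplifications, and the largest among those above the XWAB level on all 12 arrays. A bound on a fold sets the brighter stage against either the dimmest clone spot over that level or, where higher, the value of the clone itself, per array. Members, thresholds and groups of clones were chosen with earlier results of these data known. Lists of genes were not tested, since clones have no gene names. Across clones, the deviations of same-numbered blastocyst and 4-cell pools correlated at r of -0.05, 0.16 and 0.07. Pools of the same array code gave 0.17, -0.01 and 0.11, and the other pairs gave -0.10, -0.12 and -0.20. Shared deviation was not tested. Versions were R 4.3.3, limma 3.58.1, scipy 1.17.1, matplotlib 3.10.9 and pandas 2.3.3.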

Additional observations from a re-analysis of the deposited data

Results flagged for a closer look

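The spots named LMAA, XVAB and XWAB entered no test of clones, although the XWAB spots set the level used above. Of their 80 names, 8 (10%) changed between blastocysts and 4-cell embryos, 6 up and 2 down (limma adjusted p under 0.05 over these names). Among the clones, which were adjusted apart, the share was 28.8%. The 80 names were singled out as signal outside the clones. All 8 have the prefix XWAB, with changes from -1.03 to 1.74 (log2), and no pool value of theirs exceeded 8.17. The 3 LMAA names changed by 0.63 to 0.77, which did not pass the test. The labels do not give the role of these spots.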

How the results depend on the processing

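The 4 named clones kept their direction in all 112 recalculations and their call in 111, the exception being lcao0049e05 under median centring. These clones were chosen by their change in these same data. In several settings, such as the array code as a block or the filters on clones, the change itself could not move. The tally is therefore no support for these changes. The count of 592 stayed within 1.5 times in 23 of 28, and no clone called in both had the opposite sign. Median centring gave 312 calls, 244 on aRNA and 204 on PCR arrays alone (192 up, 52 down, and 176 up, 28 down), of 482 and 397. With fewer clones entering, those above the XWAB level on all 6 arrays of a stage gave 183 of 214. That filter lets a clone in through the stage where it is high, so this share is no support for the calls. A quality value of 1 on 3 or more arrays gave 337 of 542. The absence of a 4 times brighter adjacent spot gave 310 of 772. With fewer pools, leaving out those of array code 5 gave 333. Leaving out 1 pool gave 475 to 648 calls, 1 aRNA array 333 to 498 and 1 PCR array 277 to 367. With the replicate block 579 changed, and 564 of these were calls without it. With the array code as a block 626 changed, 308 up and 318 down, and 582 of these were calls without it. The share of signal in the brightest spots, 5.34 points higher in blastocysts for 50 spots, was -4.61 for 10. Restricting to clones spotted once was chosen after seeing the data and gave 587. Causes were not tested. Dim spots limit the folds: 1297 clones had no array above the XWAB level.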

Other observations

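Some names were spotted more than once, 16 in all on 51 spots, each with the prefix lcao, and their spots did not always change together. The change between blastocysts and 4-cell embryos differed between spots of a name by a median of 0.94 and by up to 5.20 (log2), and 8 of the 16 names had the same sign at every spot. In the name with the widest range, singled out after its values were seen, 1 of 3 spots changed by 5.43 and the lowest by 0.23, with mean raw intensities from 109 to 6606 over the spots on the 12 arrays. In 4 of the 16 names the mean over spots was called, and in all 4 every spot had the same sign. Whether spots of a name hold the same insert is not stated.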
